A study of Mus musculus with 24 samples.

Results

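The unfolded protein response is the program by which cells adjust to unfolded protein in the endoplasmic reticulum (ER), and the genes described here are 10 of its sensors and effectors in mouse β cells. The members were chosen by name from 33619 genes in the count table: Ern1, Eif2ak3, Atf6, Xbp1, Ddit3, Ppp1r15a, Wfs1, Herpud1, Sel1l and Edem1. All 10 were matched, and all 10 passed the filter on low counts, with between 303 and 7230 counts in any library. β cells make large amounts of proinsulin, and their ER load makes this pathway one of the best studied stress responses of the islet.

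A set of ER membrane sensors starts the response. IRE1α (encoded by Ern1) removes a short stretch from the mRNA of Xbp1, PERK (Eif2ak3) phosphorylates the translation factor eIF2α, and ATF6 is cut in the Golgi to release a transcription factor. Spliced XBP1 and cleaved ATF6 raise chaperones and the ER-associated degradation (ERAD) machinery, while the PERK arm raises ATF4, then CHOP (Ddit3), a transcription factor tied to cell death, and GADD34 (Ppp1r15a), which brings a phosphatase to eIF2α. Wolframin (Wfs1) is an ER membrane protein whose loss causes a form of diabetes.

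The mice were offspring of CD1 females that were about 7 weeks old when they went for 2 weeks on control diet (ND), high-fat diet (HFD) or low-protein diet (LPD) before they were mated to males carrying Ins1Apple, a fluorescent reporter at the Ins1 gene. From birth every animal ate control chow, so that the diets describe the mothers and not the mice studied. Islets were taken at about 7 weeks of age and Apple-positive cells were sorted, which limits the samples to cells in which the insulin gene Ins1 was active. There were 24 libraries, 4 for each of 6 groups (ND, HFD and LPD, females and males), and the labels name no litter, dam or batch, so that p-values measure the spread between these samples only.

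The libraries held 12433228 to 26375565 counts. HFD female libraries had 13225 to 19404 genes detected against 19160 to 25830 in the other 20, and 3 of the 4 lay below all others. β-cell markers were abundant everywhere, with a summed level of 91274 to 300353 CPM (counts scaled to a common library total) over 10 markers. The 9 hepatocyte markers summed to 64.3 to 211 CPM in HFD libraries and 1.01 to 6.90 CPM in the other 16. Groups follow the column names, which match the sample titles and the sex-linked counts in 24 of 24 libraries. A second line of library numbers would place all 24 columns under another diet and 8 under the other sex. By those numbers, HFD against ND would compare ND with LPD, LPD against ND would compare HFD with LPD, and HFD against LPD would compare ND with HFD.

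Sequence has a part in this response, since its factors read short elements near the start sites of their targets and IRE1α reads Xbp1 mRNA itself. The first sequence shows the Xbp1 stretch that IRE1α removes, in capitals, within exon 4 at chr11:5524279-5524304 (plus strand, GRCm38).
Xbp1 exon 4: cgCAGCACTCAGACTATGTGCACCTCTGca
With these 26 bases the reading frame of the transcript Xbp1-201 ran for 267 codons, and without them for 371. The counts are per gene and hold both forms, so the splicing of Xbp1 was not measured here.

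The next sequences show the elements found in promoter windows of genes whose levels differed between groups, from RefSeq promoters on GRCm38.p6 (250 bases before to 50 after each start site). Windows were searched on both strands for ERSE (CCAAT, any 9 bases, CCACG) and ERSE-II (ATTGG, any base, CCACG), which ATF6 and XBP1 bind, UPRE (TGACGTGG), which XBP1 binds, and CARE (TGATGNAA), which ATF4 binds. Capitals mark the element. The genes beside Herpud1 are related genes printed because they held an element, so they give no share of genes with one.
Herpud1 ERSE-II, chr8:94386368-94386397: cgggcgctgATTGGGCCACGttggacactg
Herpud1 CARE, opposite strand, chr8:94386306-94386335: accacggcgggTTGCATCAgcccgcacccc
Hspa5 ERSE, chr2:34772020-34772049: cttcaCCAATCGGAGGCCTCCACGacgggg
Creld2 ERSE, opposite strand, chr15:88819515-88819544: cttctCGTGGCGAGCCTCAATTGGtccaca
Chac1 CARE, opposite strand, chr2:119351038-119351067: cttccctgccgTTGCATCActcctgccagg
Among 32851 promoters, 0.119% held ERSE, 0.0365% ERSE-II, 0.676% UPRE and 3.97% CARE. Promoters were found for 9 of the 10 members, all but Atf6. Of these 9, Herpud1 held both ERSE-II and CARE, and no member held ERSE or UPRE as spelled. The first letters of ERSE-II are the CCAAT box read on the other strand, and that box alone was found in 6 of the 9 members and in 37.4% of all promoters. A match of letters is a description and shows no binding.

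Per gene length the 10 genes differed several-fold in level. The level is given as FPKM, counts scaled by gene length and library total, as the mean and SD over 24 libraries. Herpud1, an ER membrane ubiquitin-like protein of ERAD, was highest at 82.7 ± 15.3 FPKM, next to Xbp1 at 81.2 ± 7.76. Wfs1 stood at 53.9 ± 9.40 and Ppp1r15a at 47.4 ± 12.4. Edem1, a lectin that hands misfolded glycoproteins to ERAD, was at 26.1 ± 2.45, and Sel1l, the adaptor of the ERAD ubiquitin ligase HRD1, at 16.6 ± 1.82. The sensors Ern1, Atf6 and Eif2ak3 were at 24.5 ± 3.49, 18.4 ± 1.88 and 11.0 ± 2.43, and Ddit3 was at 18.9 ± 5.75. All lay in the upper part of the 19235 tested genes, from percentile 82.1 (Eif2ak3) to 98.6 (Herpud1).

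The genes differed in how far they moved between libraries. The highest library exceeded the lowest by 3.73-fold for Ddit3, 2.54-fold for Ppp1r15a and 2.31-fold for Eif2ak3, against 1.42-fold for Atf6 and 1.44-fold for Edem1, on CPM scaled by TMM. Between group means the ratio of highest to lowest was 1.84 for Ddit3 and 1.65 for Herpud1, and 1.14 to 1.32 for the other 8. When the 6 groups were ordered for each gene, 50 pairs of neighbours resulted, and in 4 the ranges were apart. These were Herpud1 (ND males above HFD females), Ddit3 (ND females above HFD females), Ern1 (LPD males above LPD females) and Atf6 (HFD females above HFD males). All other neighbours overlapped.

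**Figure D1:**
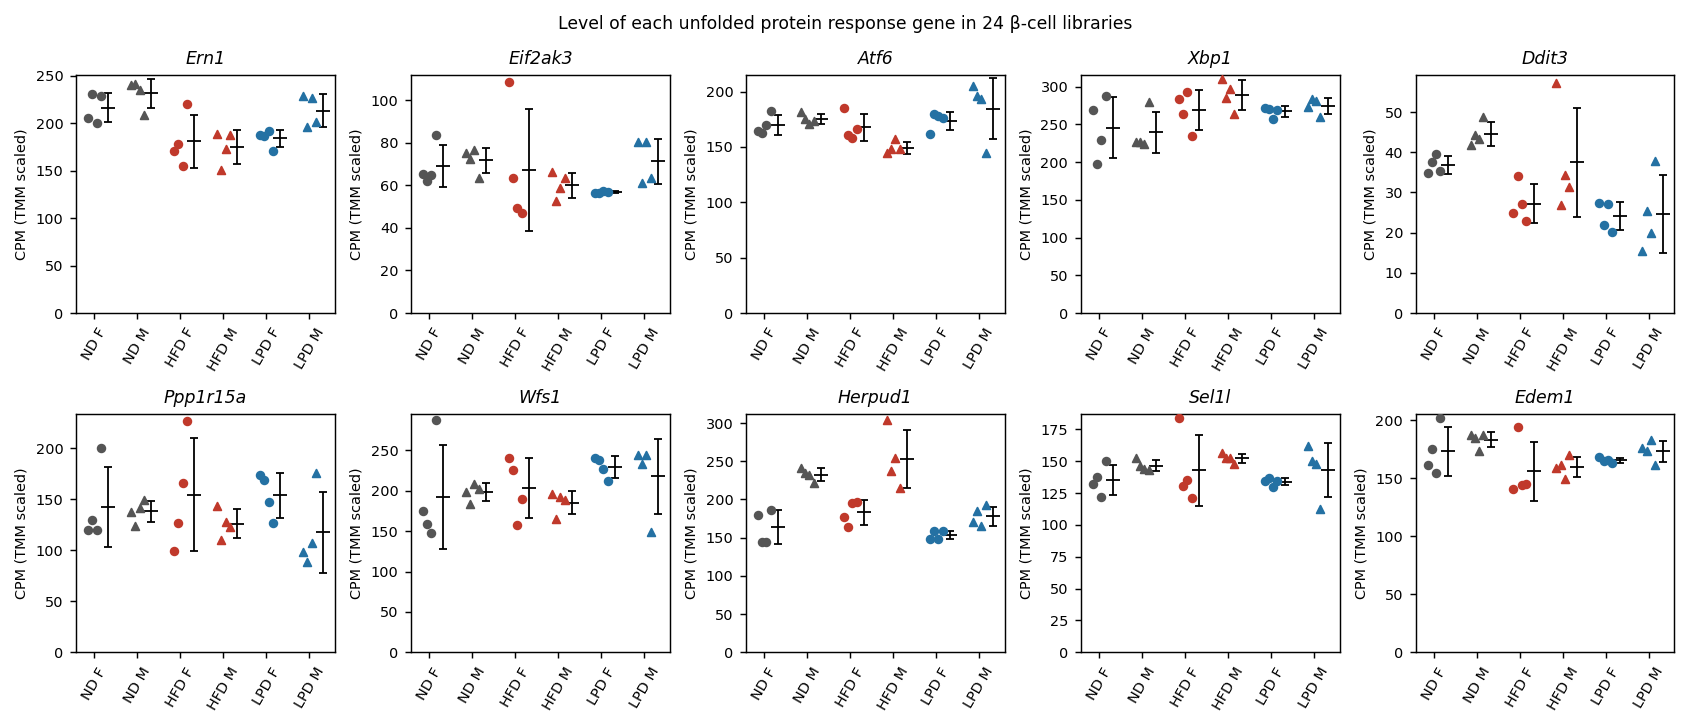
Level of the 10 genes in each of 24 β-cell libraries, in CPM scaled by TMM (vertical axis from 0), for females (F, circles) and males (M, triangles) of ND, HFD and LPD mothers, with the mean and SD of 4 libraries beside the points. Ddit3 was lower in both LPD groups than in the ND groups apart from 1 LPD male library, and Herpud1 was higher in males than in females under each diet.

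The sensor Ern1 was the single member that passed the edgeR test between HFD and ND. In ND females Ern1 stood at 206, 230.4, 200.4 and 229 CPM, and in ND males at 241, 241, 235 and 209 CPM. In HFD females it stood at 171, 178, 154 and 220.1 CPM, and in HFD males at 189, 150.3, 173 and 188 CPM. Of the 8 HFD libraries, 7 lay below every ND library, the exception being HFD female 4. Ern1 is at chr11:106394650-106487852 (GRCm38, ENSMUSG00000020715.9). Its log2 fold change was -0.33 ± 0.07 (SE), with an adjusted p of 0.00387 (edgeR quasi-likelihood test, Benjamini-Hochberg). In bulk samples, fewer cells of a type and less RNA per cell cannot be told apart. Among all genes 7.2% were called in this comparison and 5.52% were called lower, so that 1 lower call among 10 members was close to the background.

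Within the sexes, Ern1 was lower in HFD than in ND males by a log2 change of -0.40 ± 0.10 (adjusted p = 0.0374, edgeR), where 1.25% of genes were called, and the ranges did not overlap. Of the members, 3 did not overlap between HFD and ND males and 1 between the females, against 17.7% and 11.2% of all genes. The Ern1 call was lost when a single library was left out in 7 cases, with an adjusted p of 0.208 without HFD male 2, 0.132 without HFD male 3, 0.126, 0.127 and 0.137 without ND male 1, 2 and 3, and 0.0511 and 0.0506 without LPD female 2 and 3. It was also lost on FPKM (adjusted p of 0.0538 and 0.0527 in limma). In females the log2 change of Ern1 was -0.26 ± 0.10 (adjusted p = 0.106, edgeR), and -0.37 without HFD female 4 (adjusted p = 0.0145). No member was called in HFD against ND females by edgeR, DESeq2, limma on FPKM or voom, while 9.33% of genes were called by edgeR and 1 member, Ern1, had an unadjusted p under 0.05. The HFD effect on Ern1 did not differ detectably between the sexes (males minus females -0.14 ± 0.14, adjusted p = 0.716, edgeR). All 9 hepatocyte markers were called higher in HFD than in ND and 5 of 11 tested acinar markers lower, and their part in these results was not tested.

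The LPD level of Ern1 lay between the other diets. It stood at 188, 187, 191 and 171 CPM in LPD females and at 229, 196, 227 and 201 CPM in LPD males. Neither the difference from ND (-0.17 ± 0.07, adjusted p = 0.345) nor that from HFD (HFD minus LPD -0.16 ± 0.07, adjusted p = 0.174) passed the edgeR test on all libraries. Voom called both (adjusted p of 0.0398 and 0.035) and HFD against LPD in males (5.12e-05). Without HFD female 1 and 4 edgeR called HFD against LPD (0.0394). LPD females lay below every ND female and HFD males below every LPD male, where 9.92% and 11.5% of all genes did not overlap either way.

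The other sensors did not pass the edgeR test on all 24 libraries in any diet comparison, while other tools called them in some. Atf6 (chr1:170704674-170867771) had its lowest group in HFD males, at 144, 148, 157 and 148 CPM, below the 171 to 182 CPM of ND males without overlap. In the same sex LPD libraries stood at 205, 196 and 193 CPM, with LPD male 4 at 144 CPM. The log2 change of Atf6 was -0.18 ± 0.06 between HFD and LPD over both sexes (adjusted p = 0.0715, edgeR) and -0.31 ± 0.09 in males (adjusted p = 0.067). Without LPD male 4 these became -0.23 ± 0.05 (adjusted p = 0.00416) and -0.41 ± 0.07 (adjusted p = 0.00176), and without HFD female 1 the adjusted p was 0.0342 over both sexes and 0.0473 in males. With all libraries the change in males was called by DESeq2 (adjusted p = 0.0218), limma on FPKM (0.0368 and 0.0346) and voom (9.53e-06), and the change over both sexes by voom (0.018). Its HFD to ND difference was -0.12 ± 0.06 over both sexes (adjusted p = 0.286) and -0.23 ± 0.09 in males (adjusted p = 0.282, edgeR). The male difference was called by voom (adjusted p = 0.00282) and in edgeR with only the groups compared (0.0328). Among all genes 17.7% did not overlap between HFD and ND males. Voom also called Atf6 higher in LPD than in ND, over both sexes (adjusted p = 0.0344) and in males (0.013).

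Eif2ak3 (chr6:70844515-70905245) varied most among HFD females, at 109, 63.6, 49.5 and 47.0 CPM, and least among LPD females, at 56.3 to 57.2 CPM. Its log2 change was -0.15 ± 0.12 for HFD against ND, and became -0.31 ± 0.09 without HFD female 1 (adjusted p = 0.0233 against 0.591 with it, edgeR). In males voom called it lower in HFD than in ND (adjusted p = 0.00374) and in LPD (0.000733). The change for LPD against ND was -0.15 ± 0.12 (adjusted p = 0.908), with a 95% interval of -0.39 to 0.10.

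**Figure D2:**
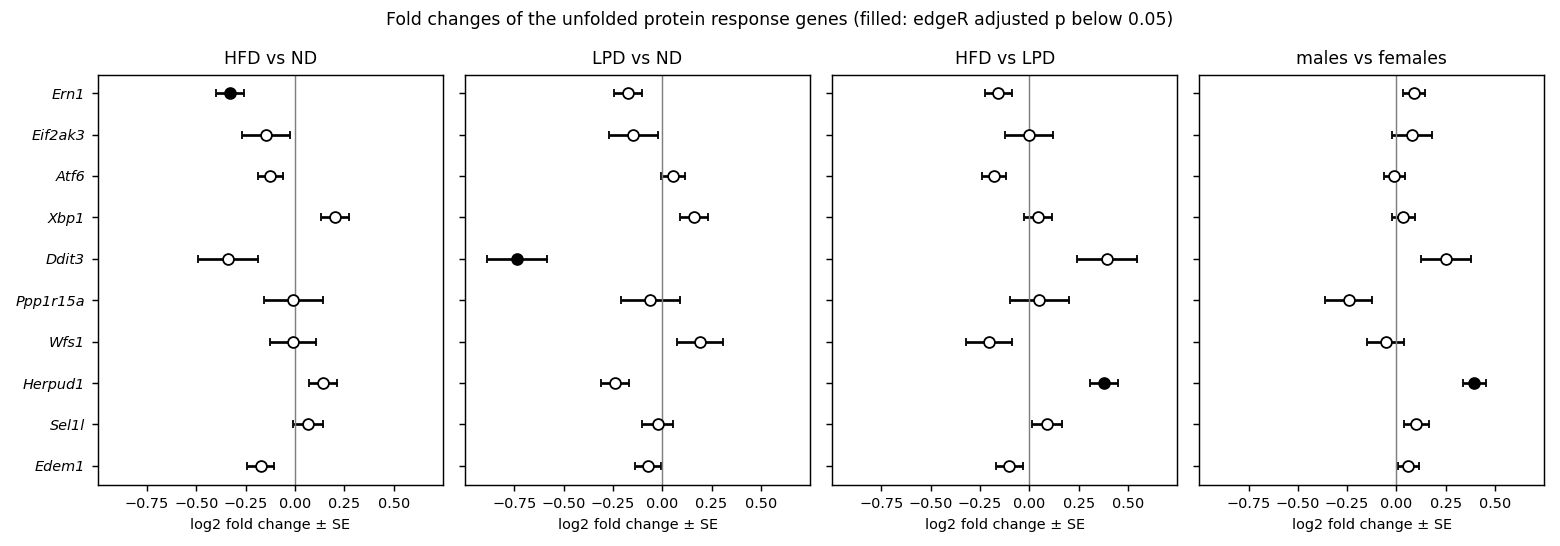
Log2 fold change with its SE (horizontal axis) of the 10 genes in 4 comparisons, HFD against ND, LPD against ND, HFD against LPD and males against females. Filled circles are genes with an edgeR adjusted p below 0.05: Ern1 in the first, Ddit3 in the second and Herpud1 in the remaining comparisons.

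Xbp1 (chr11:5520659-5525893), the target of IRE1α, was higher in HFD than in ND (means of 279 and 242 CPM) without passing the main test. It stood at 269, 197, 229 and 288 CPM in ND females and at 227, 227, 224 and 279 CPM in ND males. HFD females stood at 284, 264, 294 and 234 CPM, and HFD males at 310.4, 285, 297 and 264 CPM. In males, 3 of 4 HFD libraries lay above every ND library. The log2 change over both sexes was 0.20 ± 0.07 (adjusted p = 0.0919, edgeR), and it was called by DESeq2 (adjusted p = 0.0201), with RLE scaling (0.0444) and on FPKM (0.0275 and 0.0229 in limma). Voom, no filter, only the groups compared, the replicate block and leaving out HFD female 1 and 4 did not call it (adjusted p up to 0.196). With 1 library left out it was called in 3 of 24 runs, without HFD female 4 (adjusted p = 0.0445), ND female 4 (0.0417) or ND male 4 (0.043). In the other runs the adjusted p reached 0.226. These runs are all over both sexes. In males alone the HFD to ND change of Xbp1 was 0.27 ± 0.10 (adjusted p = 0.247, edgeR). That male change was called by voom (adjusted p = 0.000209) and in edgeR with only the groups compared (0.0289). LPD libraries lay between 257 and 284 CPM, with a log2 change from ND of 0.16 ± 0.07 (adjusted p = 0.454, edgeR). Voom called this LPD change over both sexes (adjusted p = 0.00859) and in males (0.00749).

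Ddit3, the CHOP gene (chr10:127290774-127296288, ENSMUSG00000025408.15), was the single member that passed the edgeR test between LPD and ND, where DESeq2 also called Herpud1 (adjusted p = 0.021) and voom called 6 members. ND females held 34.9, 37.5, 39.6 and 35.3 CPM and ND males 41.8, 44.4, 43.2 and 48.7 CPM. LPD females held 27.3, 22.0, 27.2 and 20.2 CPM and LPD males 15.3, 25.3, 19.8 and 37.8 CPM. Of the 8 LPD libraries, 7 lay below every ND library, and LPD male 4 lay within the ND range of the females but below every ND male. Ddit3 fell by 0.73 ± 0.15 on the log2 scale (adjusted p = 0.0157, edgeR). Here 0.832% of genes were called in this comparison and 0.354% were called lower, and 0.452% of genes were lower without overlap in both sexes, as Ddit3 was. Within single sexes 3 members did not overlap between LPD and ND females and 2 between the males, against 9.92% and 10.1% of all genes. Without LPD male 3 the adjusted p was 0.051, and with each other library left out it ran from 0.00103 to 0.0438.

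Within 1 sex the Ddit3 difference from ND did not pass the test, at -0.61 ± 0.22 in females (adjusted p = 0.313) and -0.86 ± 0.22 in males (adjusted p = 0.119, edgeR). In LPD against ND females 0.307% of genes and no member were called. Of the members, 2 had an unadjusted p under 0.05, and DESeq2 and limma on FPKM called 0 and voom 2. In LPD against ND males 0.187% of genes and no member were called by edgeR. Here 2 members had an unadjusted p under 0.05, limma on FPKM called 0, voom 6 and DESeq2 2, which were Ddit3 (adjusted p = 0.0167) and Herpud1 (0.018). Without LPD male 4 the Ddit3 change in males was -1.15 ± 0.21 (adjusted p = 0.00461, edgeR).

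HFD libraries took an intermediate place for Ddit3. HFD females held 25.0, 34.1, 27.0 and 22.8 CPM, all below the ND females, and HFD males held 57.2, 26.9, 34.2 and 31.5 CPM. HFD male 1 was the highest of all 24 libraries, and the other 3 HFD males lay below every ND library. The log2 change was -0.34 ± 0.15 for HFD against ND (adjusted p = 0.21) and -0.48 ± 0.14 without HFD male 1 (adjusted p = 0.0374, edgeR). For HFD against LPD it was 0.39 ± 0.15 (adjusted p = 0.107), and 0.54 ± 0.14 without LPD male 4 (adjusted p = 0.0127), when it was 0.90 in males alone (adjusted p = 0.0119). This difference was also called in edgeR without HFD female 1 and 4 (adjusted p = 0.0428). With all libraries voom called it over both sexes (0.68, adjusted p = 0.00815) and in males (1.03, adjusted p = 1.09e-05), while DESeq2 and limma on FPKM did not. Over both sexes, no marker list of another cell type had a call between LPD and ND, and calls within 1 sex were not counted. The 12 acinar markers had a median sum of 603 CPM in ND females and 277 in LPD females. In males these medians were 685 CPM in ND and 868 in LPD. The part of other cell types in the Ddit3 result was not tested. Ddit3 overlaps Mars and Gm4189 on the opposite strand, and the strand setting of the counting is not given in the sources used here.

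Ppp1r15a (chr7:45522916-45526268), whose product counters PERK, did not pass the test in any of the comparisons in edgeR. Its log2 changes were -0.01 ± 0.15 for HFD against ND and -0.06 ± 0.15 for LPD against ND, with a 95% interval of -0.35 to 0.23 for the latter. The LPD change was 0.11 ± 0.21 in females and -0.23 ± 0.21 in males. In males voom called Ppp1r15a lower in LPD than in ND (adjusted p = 0.00346) and higher in HFD than in LPD (0.043). Voom also called the sex difference of the LPD effect (males minus females -0.69, adjusted p = 0.004). Single libraries stood out: ND female 4 held 200.4 CPM against 119 to 130 in the other ND females, HFD female 4 held 226 CPM against 99.2 to 166, and LPD male 4 held 176 CPM against 88.9 to 107. Tulp2 overlaps this gene on the opposite strand.

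Herpud1 (chr8:94386438-94395377, ENSMUSG00000031770.16) was called by edgeR in more comparisons than any other member, and the sexes were apart in it. ND females held 179.7, 145, 145 and 187 CPM and ND males 242, 235, 232 and 221 CPM. HFD females held 177, 163, 196 and 196 CPM and HFD males 304, 238, 255 and 215 CPM. LPD females held 148, 158, 149 and 158 CPM and LPD males 170.4, 184, 166 and 193 CPM. Under each of the 3 diets every male library lay above every female library. Males exceeded females by 0.39 ± 0.06 on the log2 scale (adjusted p = 0.000112, edgeR), where 4.87% of genes were called and 3.59% called higher, and 0.198% of genes were higher in males without overlap under all 3 diets. Herpud1 was called higher in males under each alternative run, with changes of 0.27 to 0.43, and among all genes called 73.6% were higher in males in edgeR against 23.5% on FPKM.

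Between diets, Herpud1 was higher in HFD than in LPD by 0.38 ± 0.07 (adjusted p = 0.00112, edgeR). Of the 8 HFD libraries, 6 lay above every LPD library, and within each sex the 4 HFD libraries lay above the 4 LPD libraries. In this comparison 9.99% of genes were called and 2.38% called higher, and 0.489% were higher without overlap in both sexes. Within single sexes 1 member did not overlap between HFD and LPD females and 2 between the males, against 11% and 11.5% of all genes. In males the change was 0.50 ± 0.10 (adjusted p = 0.0057, 2.41% of genes called), and in females 0.25 ± 0.10 (adjusted p = 0.127). No member was called between HFD and LPD females by edgeR or voom, against 8.64% of genes by edgeR. There 1 member, Herpud1, had an unadjusted p under 0.05, and it was called by DESeq2 (adjusted p = 0.0353) and by limma on FPKM (0.047 and 0.0365). Against ND the changes were 0.14 ± 0.07 for HFD (adjusted p = 0.286) and -0.24 ± 0.07 for LPD (adjusted p = 0.126, edgeR). The LPD change was called by DESeq2 (adjusted p = 0.021), by voom (0.000382) and in edgeR with only the groups compared (0.0353). The comparisons share their ND, HFD or LPD samples, so they are not independent of each other.

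The LPD change of Herpud1 was -0.38 ± 0.10 in males (adjusted p = 0.152) and -0.10 ± 0.10 in females (adjusted p = 1). The difference between the sexes was -0.29 ± 0.14 (unadjusted p = 0.0558, adjusted p = 1, edgeR). No member was called for a difference between the sexes in the HFD effect (3.64% of genes called) or the LPD effect (0.0052%), and none had an unadjusted p under 0.05 in either. DESeq2 and limma on FPKM also called 0, and voom called 0 for HFD and 3 for LPD. As in the other HFD comparisons, 9 of 9 hepatocyte markers were called higher in HFD than in LPD, 1 of 11 tested acinar markers higher and 3 lower. Their part in the Herpud1 result was not tested. The lncRNA Gm15890 overlaps Herpud1 on the opposite strand.

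The other genes that serve ERAD, Sel1l (chr12:91806043-91849157) and Edem1 (chr6:108828641-108859356), did not pass the edgeR test on all 24 libraries in any comparison. Sel1l ranged from 113 to 184 CPM over all 24 libraries and its log2 change was 0.07 ± 0.08 for HFD against ND and -0.02 ± 0.08 for LPD against ND. The interval of the latter was -0.17 to 0.13. Edem1 stood at 154 to 202 CPM in ND females and at 140.3, 194, 144 and 145 CPM in HFD females, so that HFD female 2 was the 1 HFD female inside the ND range. Its log2 change for HFD against ND was -0.17 ± 0.07 (adjusted p = 0.128), and -0.24 ± 0.06 without HFD female 2 (adjusted p = 0.00581, edgeR; 0.0216 in females alone). In males Edem1 stood at 149 to 170.0 CPM in HFD and at 174 to 188 CPM in ND, without overlap. That change was -0.20 ± 0.10 (adjusted p = 0.51, edgeR) and was called by voom (adjusted p = 0.00175).

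In Wfs1 (chr5:36966104-36989205) single libraries stood far from the rest of their group. ND females held 176, 159, 148 and 287 CPM, and LPD females held 241, 238, 227 and 212 CPM. LPD males held 245, 233, 244 and 149 CPM, against 184 to 209 CPM in ND males. The log2 change for LPD against ND was 0.19 ± 0.12 (adjusted p = 0.735), and 0.39 ± 0.08 without ND female 4 and LPD male 4 (adjusted p = 0.00425, edgeR), a pair left out after the data were seen. With all libraries voom called it higher in LPD than in ND, at 0.35 (adjusted p = 0.000322), in females (0.0104) and in males (0.0154). In males voom also called it lower in HFD than in LPD (adjusted p = 0.00594). DESeq2 and limma on FPKM did not call it in these comparisons.

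**Figure D3:**
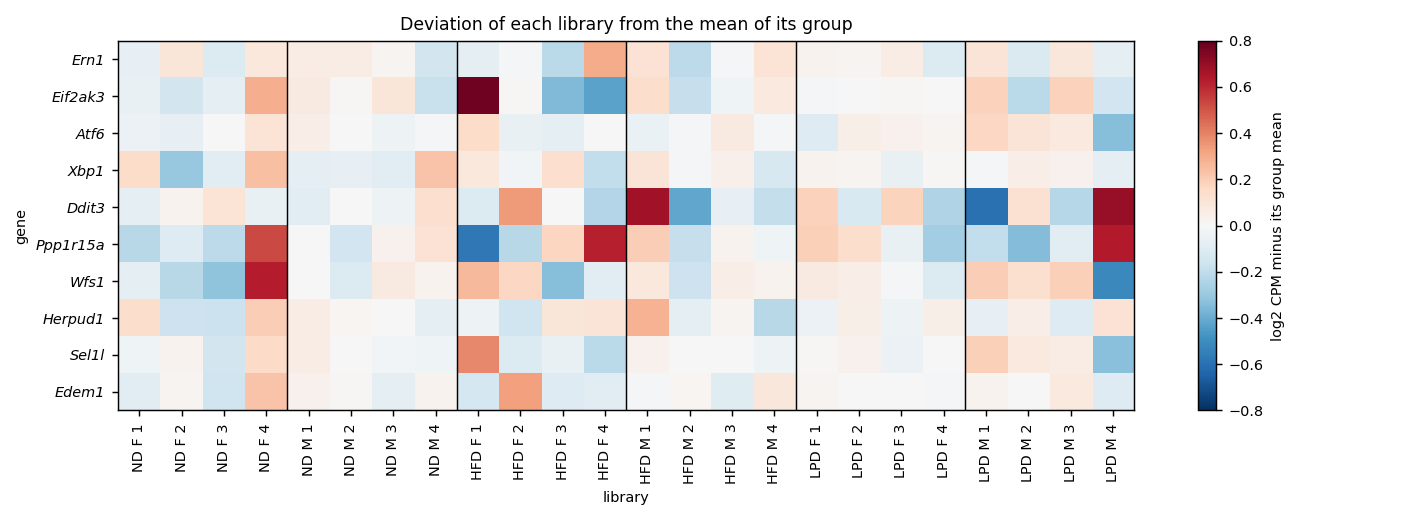
Deviation of each library from the mean of its group, as log2 CPM (colour, from -0.8 to 0.8), for the 10 genes (rows) in 24 libraries (columns, ordered by group). ND F 4 is the highest library of its group for 8 of the 10 genes, and LPD M 4 is the lowest for 5 genes and the highest for 3.

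Libraries of 1 group deviated in several members at once. ND female 4 was the highest of its group in 8 of 10 members and HFD male 1 in 8 of 10. LPD male 4 was the lowest in 5 (Atf6, Xbp1, Wfs1, Sel1l and Edem1) and the highest in 3 (Ddit3, Ppp1r15a and Herpud1). Insulin transcripts took 11.3% of the counts in LPD male 4 and 17.0% to 22.6% in the other LPD males, and the part of this in the members' levels was not tested. With group means removed, 31 of the 45 pairs of members had a correlation above 0 over 24 libraries, with a median of 0.119. Atf6 and Sel1l went together most (r = 0.772), followed by Eif2ak3 and Sel1l (0.753), and Atf6 and Ddit3 went apart most (r = -0.653). These points share the scaling of each library and are given as a description.

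The gene most like a member, by the same measure among 10721 genes of at least 5 CPM, was Mrtfa for Ern1 (r = 0.876), Apba3 for Eif2ak3 (0.907), Pi4ka for Atf6 (0.911) and Atp5d for Xbp1 (0.897). For Ddit3 it was Gem (0.805) and for Ppp1r15a Rps2-ps10 (0.915). For Herpud1 it was Amigo3 (0.760), for Sel1l Fndc3b (0.916), and for Edem1 Carhsp1 (0.848). Each is the highest of many values, which makes it high by selection.

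Over both sexes the medians of the 10 members lay close to those of all genes. The median log2 change was -0.07 for the members and -0.06 for all tested genes in HFD against ND, -0.07 and -0.01 in LPD against ND, and 0.02 and -0.05 in HFD against LPD. Of the members, 3 of 10 had a change above 0 in each of the first pair of comparisons and 5 of 10 in the last. Within the sexes the medians lay further apart in HFD against ND. They were -0.16 for the members and 0.0007 for all genes in males, and 0.03 and -0.09 in females. In LPD against ND they were -0.04 and 0.002 in females and -0.06 and 0 in males. In HFD against LPD they were 0.006 and -0.09 in females and -0.02 and 0.02 in males.

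Calls in 5 lists of 90 related genes are read against all genes, of which edgeR called 7.2% in HFD against ND, 0.832% in LPD against ND and 9.99% in HFD against LPD. List names are short labels, and the ATF6 family list also holds Nfyb, which is not itself a member of that family. Between HFD and ND, 0 of 23 other ERAD genes were higher and 1 lower, namely Ubxn4, an ER membrane protein of ERAD, at -0.34 ± 0.08 (adjusted p = 0.00951, edgeR). Of 19 chaperones and folding enzymes, 1 was lower, Fkbp2, an ER prolyl isomerase, at -0.52 ± 0.10 (adjusted p = 0.00202). In HFD females Fkbp2 stood at 28.5 to 51.0 CPM against 61.6 to 97.2 CPM in ND females, while in males the ranges overlapped (69.5 to 82.5 and 72.4 to 94.8 CPM). Its call was lost with voom quality weights (adjusted p = 0.0513). No gene was called among 22 of the PERK arm, 12 of the ATF6 family and 13 IRE1 partners in edgeR, where 5, 2 and 1 had an unadjusted p under 0.05, and DESeq2 called 2, 1 and 0.

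Between LPD and ND, edgeR called 3 of 19 chaperones and folding enzymes and 1 of 22 PERK arm genes lower and none in either list higher, against 0.354% of all genes called lower. Chac1, a glutathione-degrading enzyme downstream of ATF4, fell by 1.07 ± 0.20 (adjusted p = 0.00657, edgeR). Its level was 8.08 ± 2.49 CPM in ND females and 3.99 ± 1.16 in LPD females, and 21.6 ± 4.79 in ND males and 9.96 ± 0.589 in LPD males (SD, n = 4). Manf, a secreted ER stress factor, fell by 0.42 ± 0.09 (adjusted p = 0.0155, edgeR). Dnajb11, a co-chaperone of BiP, fell by 0.36 ± 0.09 (adjusted p = 0.049) and Fkbp2 by 0.41 ± 0.10 (adjusted p = 0.0484), and these calls were lost in 21 and 20 of the 34 alternatives. No gene was called among 23 ERAD, 12 ATF6 family and 13 IRE1 partner genes in edgeR, where 1, 2 and 1 had an unadjusted p under 0.05, DESeq2 called 1, 0 and 0, and limma on FPKM called 0 in each. Voom called more in this comparison, among them 4 ERAD genes higher and 2 lower, 2 PERK arm genes higher and 3 lower, and 2 chaperones higher and 7 lower. It also called 3 ATF6 family genes and 3 IRE1 partners higher and 1 of each lower.

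Between HFD and LPD, edgeR called 3 of 22 PERK arm genes higher and none lower, against 2.38% of all genes called higher, and DESeq2 called 5 higher. Chac1 was higher by 1.59 ± 0.20 (adjusted p = 1.31e-05, edgeR), with HFD levels of 15.8 ± 7.89 CPM in females and 22.7 ± 3.88 in males. Atf4, the transcription factor of this arm, was higher by 0.34 ± 0.08 (adjusted p = 0.00563). Eif2b1, a subunit of the exchange factor eIF2B, was higher by 0.45 ± 0.12 (adjusted p = 0.0123), a call lost in 3 of the 34 alternatives, that without HFD female 1 and 4 among them.

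Among the chaperones edgeR called 3 of 19 higher in HFD than in LPD and none lower, against the same 2.38%, while DESeq2 called 7 higher, limma 2 on FPKM plus 1 and 4 on FPKM plus 0.1, and voom 1. Creld2, a secreted ER stress protein, was higher by 0.63 ± 0.11 (adjusted p = 0.000462, edgeR), with 140.4 ± 25.1 CPM in HFD females and 87.8 ± 12.2 in LPD females, and 183 ± 20.8 in HFD males and 122 ± 32.4 in LPD males. Hspa5, which encodes the ER chaperone BiP, was higher by 0.21 ± 0.06 (adjusted p = 0.0361), lost in 12 of the 34 alternatives. The third was Pdia6, a disulfide isomerase named after its value was seen, at 0.23 ± 0.07 (adjusted p = 0.04). Of these genes, Hspa5 and Creld2 held ERSE and Chac1 held CARE, as printed above, where only list genes with a match were shown.

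In the ATF6 family list, Nfyb, a subunit of the CCAAT-binding factor NF-Y, was higher by 0.46 ± 0.14 (adjusted p = 0.0403, edgeR). This call was lost in 18 of the 34 alternatives. Creb3l2 was lower by 0.25 ± 0.07 on the log2 scale (log2 change -0.25, adjusted p = 0.0217, edgeR), a call lost without LPD male 1 or 3 (adjusted p up to 0.0567). Among 13 IRE1 partners, Bloc1s1, whose mRNA IRE1α can cut, was higher by 1.62 ± 0.50 (adjusted p = 0.0372), at group means of 0.378 to 2.19 CPM and lost in 14 of the 34 alternatives. No ERAD gene of 23 was called by edgeR, DESeq2 or limma on FPKM, and 5 of these genes had an unadjusted p under 0.05.

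**Figure D4:**
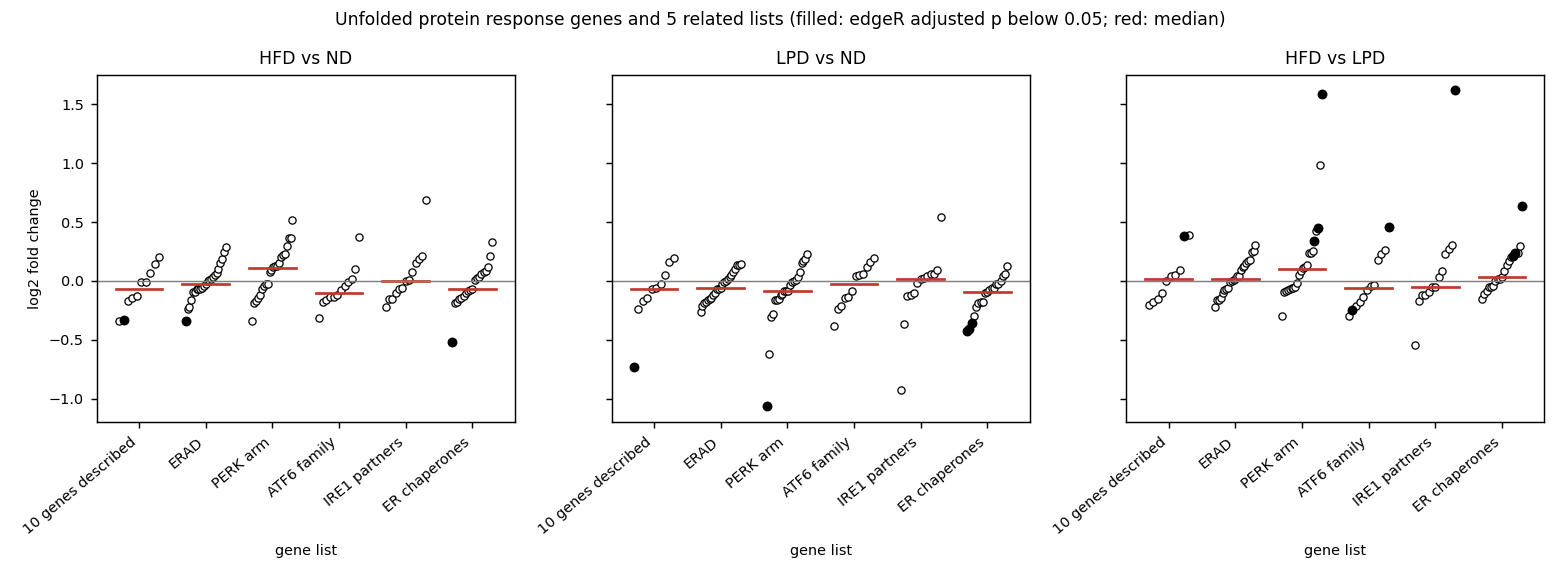
Log2 fold change (vertical axis) of the 10 genes described and of the tested genes of 5 related lists (horizontal axis) in 3 diet comparisons. Filled circles passed the edgeR test at an adjusted p below 0.05 and red bars are medians. PERK arm genes and ER chaperones each hold 3 filled circles above 0 in HFD against LPD.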

How the data were processed

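RNA from sorted β cells was depleted of ribosomal RNA and sequenced as stranded libraries. The authors deposited raw counts per gene, without normalisation, and FPKM, which matched counts per gene length and library total within 5e-04. Per the submitters' processing notes, the tools were cutadapt 2.10, STAR 2.7.8a, HOMER and DESeq2 on GRCm38.p6. Which of them counted reads, and with which annotation release, is not stated there.

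Counts of 24 libraries were fitted as 6 group means in edgeR 4.0.16 (limma 3.58.1, R 4.3.3) after filterByExpr (19235 genes) and TMM scaling, where the common dispersion came to 0.158 (7.71 prior degrees of freedom). The quasi-likelihood test was adjusted over all genes, and an adjusted p below 0.05 was a call. The 12 comparisons were 3 diet pairs over both sexes and in each sex, the sex differences of the HFD and LPD effects, and males against females. Intervals are estimate ± 1.96 SE. The scripts were tested on simulated data.

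Alternatives were DESeq2 1.42.0, RLE scaling, no filter, limma on log2 of FPKM plus 1 or 0.1, voom with quality weights, fewer libraries or groups, a replicate block and each library left out. The members and lists were chosen with earlier results of these data known. The text names all members, Atf4, Hspa5, called list genes (at most 4 a list) and each member's most similar gene, which for Wfs1 is not reported here. The precision is set by 4 libraries a group, since each member had at least 303 counts.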

Additional observations from a re-analysis of the deposited data

Results flagged for a closer look

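Among 60 groups of 4 libraries (10 genes in 6 groups), 5 held a library whose gap to the nearest other, as a share of the range, exceeded Dixon's 95% critical value, where chance gives about 1 in 20, or 3. Eif2ak3 in ND female 4 was at 83.6 CPM against 61.9 to 65.6 in the other ND females. Ppp1r15a in the same library was at 200.4 CPM against 119 to 130. Wfs1 in LPD male 4 was at 149.3 CPM against 233 to 245 in the other LPD males. Xbp1 in ND male 4 was at 279.1 CPM against 224 to 227, and Edem1 in HFD female 2 was at 194.2 CPM against 140.3 to 145. No cause was tested.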

How the results depend on the processing

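Under the alternatives 3973 values of the members kept their side of the threshold, 11 lost a call and 86 gained one. Of the values called in either fit, 0 changed sign. Values called in neither fit could change sign. For Ppp1r15a in HFD against ND the log2 change was -0.008 in the main fit and up to 0.085 in an alternative. The replicate numbers pair nothing in the labels, and 4 of 24 libraries correlated best with their own number. The replicate block left 0 members called in HFD against ND males (Ern1 adjusted p = 0.0591) and changed no other member count.

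The number of members called moved as follows, and the cause was not tested. For HFD against ND it went from 1 to 2 with DESeq2, RLE scaling, FPKM plus 1 or 0.1, without HFD female 1 and 4, and without ND female 4 and LPD male 4 (a pair chosen after seeing the data). For LPD against ND it went from 1 to 2 with DESeq2, only the groups compared, or without that pair, and to 6 with voom quality weights. For HFD against LPD it went from 1 to 4 with voom, without HFD female 1 and 4, or without that pair. In females, HFD against ND went from 0 to 1 without HFD female 1 and 4, LPD against ND from 0 to 2 with voom and to 1 without that pair or with only the groups compared, and HFD against LPD from 0 to 1 with DESeq2 and FPKM plus 1 or 0.1. In males, HFD against ND went from 1 to 0 on FPKM plus 1 or 0.1 and under the block, to 5 with voom and to 3 with only the groups compared. LPD against ND in males went from 0 to 2 with DESeq2 or without that pair, to 1 with no filter, without HFD female 1 and 4 or with only the groups compared, and to 6 with voom. HFD against LPD in males went from 1 to 2 with DESeq2, FPKM plus 1 or 0.1 and without HFD female 1 and 4, to 4 without that pair and to 8 with voom. The LPD effect by sex went from 0 to 3 and males against females from 1 to 2 with voom.

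With each library left out, the counts ranged from 1 to 2 for HFD against ND, 0 to 1 for LPD against ND and 1 to 3 for HFD against LPD. In females they ranged from 0 to 1, 0 to 0 and 0 to 1, and in males from 0 to 1, 0 to 1 and 1 to 3, for the same diet pairs. They stayed at 0 for both sex differences of diet effects and at 1 for males against females. In HFD against LPD, single libraries left out also brought calls of Atf6 (adjusted p = 0.0342 without HFD female 1), Edem1 (0.0479 without HFD female 2) and Ern1 (0.0315 without HFD female 4), and in females of Herpud1 (0.0449 without HFD female 2).

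Over all genes, 1384 calls for HFD against ND became 638 with voom, and the share higher went from 23.3% to 48.3%. For LPD against ND 160 calls became 468 with DESeq2, 3884 with voom, 696 without HFD female 1 and 4, 570 without the pair and 917 with only the groups compared. For HFD against LPD 1921 became 3018 without HFD female 1 and 4 and 933 with only the groups compared, and 23.8% of calls were higher against 37.1% with DESeq2. In females, 1794 calls for HFD against ND ran from 27 (only the groups compared) to 3223 (FPKM plus 0.1), 59 for LPD against ND up to 1451 (voom) and 1661 for HFD against LPD from 44 (only the groups compared) to 2536 (FPKM plus 0.1). In males, voom took 241, 36 and 464 calls for the same pairs to 4202, 3953 and 4666. The HFD effect by sex had 700 calls and 21 with voom, the LPD effect 1 and 1129 with voom, and males against females 937 and 1516 without HFD female 1 and 4. With 1 library left out, calls rose to 3239 for HFD against ND and 3663 for HFD against LPD, both without HFD female 2, and ran from 76 to 353 for LPD against ND. Those for HFD against ND reached 4233 in females and ran from 102 to 480 in males, and those for LPD against ND ran from 12 to 158 in females and from 2 to 177 in males. Those for HFD against LPD reached 4033 in females and ran from 159 to 770 in males, those for the HFD effect by sex ran from 378 to 2437 and for the LPD effect from 0 to 47, and males against females reached 2195. Voom gave HFD females low weights, 0.082 to 0.425, against 0.294 to 4.16 elsewhere.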

Other observations

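The sexes also differed in the related lists. Among 19 ER chaperones and folding enzymes 4 were called higher in males and none lower, and among 22 PERK arm genes 3 were higher and none lower, against 4.87% of all genes called either way (edgeR). Chac1 was higher in males by 1.09 ± 0.16 (adjusted p = 0.00012), Creld2 by 0.46 ± 0.09 (adjusted p = 0.00205), Fkbp2 by 0.46 ± 0.08 (adjusted p = 0.00113) and Atf4 by 0.26 ± 0.06 (adjusted p = 0.0171, edgeR). For Fkbp2 the HFD effect also differed between the sexes (males minus females 0.72 ± 0.20, adjusted p = 0.0464, edgeR). Its means in females and males were 78.7 and 85.7 CPM in ND, 42.8 and 76.6 in HFD, and 53.4 and 71.5 in LPD. On FPKM plus 1 the same chaperone list held 3 higher and 0 lower calls and the PERK arm list 1 higher and 2 lower.

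Within the groups, some members moved with library measures. Each member was set against genes detected, the share of insulin transcripts and the acinar marker level, and the largest correlations are given, picked after all were seen. With group means removed, Edem1 had a correlation of 0.524 with the number of genes detected over 24 libraries. With the share of insulin transcripts, Xbp1 had one of 0.522 and Atf6 one of 0.453, while Ern1 (-0.374) and Ddit3 (-0.366) went the other way. All remaining correlations were smaller in size. The part of these measures in the comparisons was not tested.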
